A study of Mus musculus with 3 samples.

Results

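MES_DIFF is 1 of 6 mesenchymal classes that the authors gave to single cells of the injured mouse sciatic nerve. The cells described here are those whose class in the authors' cell metadata is exactly MES_DIFF, in the day 7 and day 21 libraries. There were 695 of them, 308 among 1780 annotated cells at day 7 (17.3%, 95% interval 15.6 to 19.1) and 387 among 4111 at day 21 (9.41%, 8.54 to 10.3). The whole series held 7234 annotated cells. The 16 MES_DIFF cells of the intact nerve library were too few to compare and are given at the end as values.

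The study sorted TdTomato-positive cells from sciatic nerve and profiled them by droplet single-cell RNA sequencing. All 3 groups carried the R26-TomatoLSL reporter with Pdgfrb-cre/ERT2, a Cre that acts after tamoxifen in cells using the Pdgfrb promoter. The groups were intact nerve and the bridge, the tissue that forms between the cut nerve ends, at day 7 and day 21 after injury. Nerves were pooled, and each group is 1 library. The differences between classes therefore have no replicate check, and no test was made. Beads that remove myelin were used on the intact nerve only, and strain, sex and age are not given in the sources used here. All intervals are 95% intervals and cover counting error only. The meaning of DIFF is not given in the sources used here.

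A peripheral nerve has 3 connective tissue layers. Endoneurial fibroblasts lie among the axons, perineurial cells form a barrier sheath around each fascicle, and epineurial fibroblasts make up the outer coat. After a nerve is cut, fibroblasts enter the gap and lay down matrix through which Schwann cells and axons then pass. Fibroblasts of healing tissue are known for tenascin-C, periostin and collagens, and signals of the TGF-beta family are known to raise the output of such matrix. Each MES_DIFF value below is set beside MES_ENDO, MES_EPI and MES_PERI, the authors' classes named for these layers, of the same library. UMIs, the counted molecules, were summed over the cells of a class and are given as CPM, counts per 1000000 UMIs of that sum. The classes are the authors' own calls on these same cells, so a gap between classes describes them and does not test them.

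MES_DIFF cells were the deepest of these 4 classes at day 7, with a median of 26050 UMIs per cell against 15143 in MES_ENDO, 19884 in MES_EPI and 15443 in MES_PERI. At day 21 the medians were 9178, 8649, 9666 and 5829. The class sums held 8003351 UMIs in MES_DIFF at day 7 and 3911179 at day 21. Their median share of mitochondrial UMIs was 0.831% and 1.57%. Of the annotated cells, 2 barcodes occurred in both bridge libraries, 1 of them in a MES_DIFF cell. Pdgfrb, the gene whose promoter drives the Cre, was at 107 CPM in MES_DIFF against 123 in MES_ENDO, 136 in MES_EPI and 47.7 in MES_PERI at day 7, and at 98.4 against 299, 197 and 125 at day 21.

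Markers of cells other than fibroblasts were present at various levels. In cells thinned to 2000 UMIs no MES_DIFF cell of 308 or of 387 had a UMI of Ptprc, the pan-leukocyte gene. The exact intervals reach 1.19% and 0.949%, and they limit the share of cells with a UMI at this depth, not the share of cells that express the gene. Pecam1, an endothelial gene, had a UMI in 1 cell at day 7 and in none at day 21. The summed Schwann cell list stood at 67.0 CPM in MES_DIFF at day 7, where the layer classes ranged from 75.7 to 148, and at 223 CPM at day 21, where they ranged from 245 to 324. The vascular smooth muscle list was highest in MES_DIFF at day 7, at 340 CPM against 42.3 to 239, and the pericyte list lowest, at 43.4 against 126 to 151. At day 21 these lists stood at 103 against 12.2 to 131, and at 104 against 90.5 to 237. Of the 6 genes in the smooth muscle list, only 2 reached 20 CPM in any class compared at day 7, and 1 at day 21. Those 2 were Acta2 and Tagln, which are given again below with the contractile genes. The day 7 lead of MES_DIFF in this list thus rests mostly on genes that are also counted as contractile. The endothelial list was at 87.7 CPM against 27.9 to 244 at day 7 and at 144 against 26.4 to 285 at day 21, and the myeloid list at 26.6 against 40.3 to 85.1 and at 33.0 against 17.7 to 24.4. The part of such cells or of free RNA in the results below was not tested.

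The 5 genes proposed as markers of MES_DIFF set the class apart only in part. Tnc, which encodes tenascin-C, was at 1765 CPM in MES_DIFF at day 7 against 116 in MES_ENDO, 250 in MES_EPI and 23.7 in MES_PERI. At day 21 it was at 152 CPM against 12.2, 20.2 and 3.81. Tnc was thus highest of the 4 classes in both libraries, by at least 7.06-fold at day 7 and 7.51-fold at day 21. Postn, encoding periostin, was at 4468, 564, 3856 and 517 CPM at day 7 and at 2489, 199, 1888 and 677 at day 21, in the same order of classes. MES_DIFF led MES_EPI in Postn by only 1.16-fold and 1.32-fold. Mest, an imprinted gene, was highest in MES_DIFF at day 7 (1413 CPM against 62.1, 925 and 143), and below MES_EPI at day 21 (451 against 541). Cthrc1, a secreted collagen-associated protein gene, did not mark the class. Its levels were 880 CPM in MES_DIFF, 985 in MES_ENDO and 962 in MES_EPI at day 7, and 50.9, 258 and 83.9 at day 21. Dlk1, a transmembrane relative of the Notch ligands, was at 287 CPM in MES_DIFF and 651 in MES_EPI at day 7, and at 142 in MES_DIFF and 176 in MES_ENDO at day 21.

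The MES_EPI-diff class, which is no reference here, exceeded MES_DIFF in 4 of these 5 genes in both libraries. It held Tnc at 3054 CPM at day 7 and 1298 at day 21, and Postn at 8580 and 8515. Dlk1 was the exception, at 91.4 and 68.7 CPM in MES_EPI-diff. That class had 94 cells at day 7 and 22 at day 21. The cells are therefore called by the authors' label alone.

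**Figure D1:**
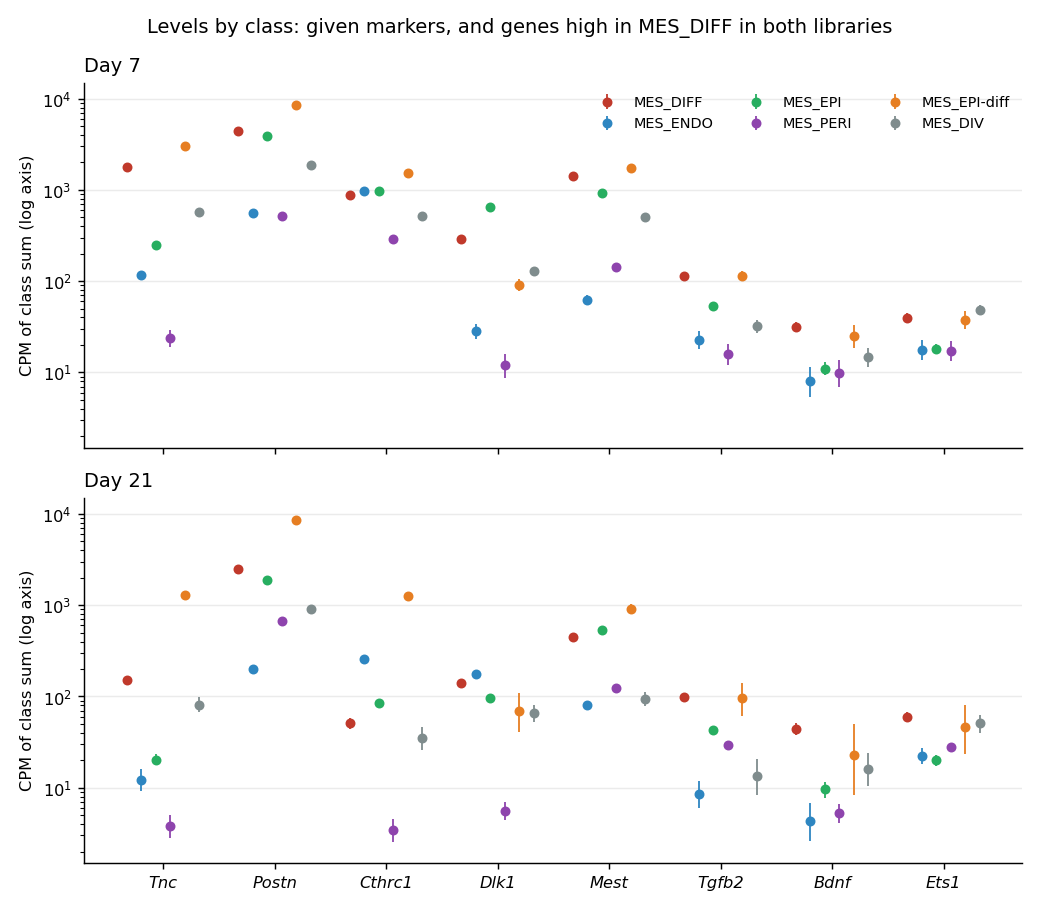
Level of 8 genes in 6 classes, as CPM of the class sum on a log axis, at day 7 (top) and day 21 (bottom). Each point is 1 class and its bar is the exact Poisson 95% interval. MES_DIFF (red) lies above MES_ENDO, MES_EPI and MES_PERI for Tnc, Postn, Tgfb2, Bdnf and Ets1 in both libraries, and MES_EPI-diff (orange) lies above it for Tnc and Postn.

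Few genes placed MES_DIFF more than 2-fold above every layer class. Of 6410 genes with at least 20 CPM in at least 1 of the 4 classes at day 7, 33 (0.515%) were more than 2-fold higher in MES_DIFF than in each of MES_ENDO, MES_EPI and MES_PERI. At day 21 there were 16 of 6718 (0.238%). The same count gave 78 and 139 genes for MES_ENDO, 205 and 231 for MES_EPI, and 117 and 178 for MES_PERI. By this 2-fold rule MES_DIFF had the fewest of the 4 classes in both libraries. Of 6048 genes measured at this level in both libraries, 4 (0.0661%) met the rule in both. They were Tnc, Tgfb2, Bdnf and Ets1: a matrix protein gene, genes of secreted signals and a transcription factor gene.

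Tgfb2 encodes a TGF-beta ligand. It was at 113 CPM in MES_DIFF, 22.7 in MES_ENDO, 53.1 in MES_EPI and 15.99 in MES_PERI at day 7, and at 98.4, 8.503, 43.0 and 29.8 at day 21. The smallest gap was to MES_EPI, with a log2 ratio of 1.09 (0.94 to 1.23) at day 7 and 1.20 (0.99 to 1.40) at day 21, so that its lower bounds fall just short of 2-fold. Bdnf, which encodes the neurotrophin that binds the receptor TrkB, was also above all 3. It was at 31.6 CPM in MES_DIFF and at 8.03, 11.001 and 9.86 in the 3 layer classes at day 7, and at 44.5 against 4.37, 9.61 and 5.23 at day 21. Ets1, a transcription factor gene of the ETS family, was at 39.9 CPM against 17.7, 17.9 and 17.3 at day 7, and at 59.8 against 22.5, 20.1 and 28.3 at day 21. The interval of its ratio to each class reached below a log2 ratio of 1 at day 7, so the 2-fold call of Ets1 is within counting error. Ets1 lies outside the rule for named genes and is named because the count was 4.

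The promoters of Tnc and Tgfb2 are shown since these 2 of the 4 genes had the larger sums of counts. Each sequence is from RefSeq on GRCm38.p6, runs from 250 bases before to 50 after the annotated start, and has in capitals every match to the letters TATAAA on either strand. Tnc is given at the first of its 2 annotated starts (chr4:64046966-64047265, minus strand) and Tgfb2 at its single start (chr1:186705940-186706239, minus strand).
Tnc: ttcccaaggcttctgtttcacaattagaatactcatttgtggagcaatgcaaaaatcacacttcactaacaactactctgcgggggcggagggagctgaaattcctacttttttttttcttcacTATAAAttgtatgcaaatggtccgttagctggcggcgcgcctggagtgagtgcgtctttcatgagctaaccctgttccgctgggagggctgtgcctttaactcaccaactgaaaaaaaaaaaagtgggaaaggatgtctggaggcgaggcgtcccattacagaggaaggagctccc
Tgfb2: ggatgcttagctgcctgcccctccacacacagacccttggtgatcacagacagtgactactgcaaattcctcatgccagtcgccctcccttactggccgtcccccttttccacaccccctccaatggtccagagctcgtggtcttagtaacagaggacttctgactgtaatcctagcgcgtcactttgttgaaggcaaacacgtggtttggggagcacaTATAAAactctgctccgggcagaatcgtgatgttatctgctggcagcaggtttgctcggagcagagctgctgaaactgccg
The match lies 31 bases before the start in Tgfb2 and 126 bases before it in Tnc, or 205 before the second Tnc start. TATAAA was found in 13.6% of 32851 promoter windows of this length. The letters TGANTCA, which AP-1 factors are known to bind, were found in neither of these windows on either strand, and in 7.81% of all windows. The same held for GGAATG, known for TEAD factors, which was in 14.7% of all windows. It also held for CCGGAAG, known for ETS factors, which was in 8.86%. Of the other 2 genes, Bdnf had 7 annotated starts in the table. A window of Bdnf, that of start 2, held TGANTCA and GGAATG, and that of start 7 held GGAATG at 2 places. Tnc spans bases 63959785 to 64047015 of chromosome 4 in mm10 and Tgfb2 bases 186622792 to 186705989 of chromosome 1. Bdnf spans bases 109674700 to 109727007 of chromosome 2 and Ets1 bases 32636221 to 32757820 of chromosome 9.

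The Tnc level of day 21 and the Bdnf levels of both days came mostly from a small share of the cells. At day 21 Tnc had a UMI in 76 of 387 MES_DIFF cells, and the 39 cells with the most Tnc held 92.1% of its UMIs. At day 7 it had a UMI in 291 of 308 cells and the 31 richest cells held 42.5%. Bdnf had a UMI in 89 of 308 cells at day 7, where the 31 richest held 72.3% of its UMIs. At day 21 it had a UMI in 58 of 387 cells, and the 39 richest held 89.1%. With cells thinned to 2000 UMIs, Bdnf was seen in 3.57% of MES_DIFF cells at day 7 (1.80 to 6.30). The shares were 0.784% in MES_ENDO, 2.07% in MES_EPI (1.14 to 3.45) and 1.66% in MES_PERI. Tgfb2 was spread more widely, over 211 of 308 and 158 of 387 cells. With all cells thinned to 2000 UMIs, Tnc was seen in 67.9% of MES_DIFF cells at day 7 (62.3 to 73.0), against 11.4% of MES_ENDO, 22.5% of MES_EPI and 2.07% of MES_PERI cells. At day 21 the shares were 11.1% (8.16 to 14.7), 1.03%, 2.92% and 0.387%.

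Other genes were over 2-fold above each layer class in 1 library and not in the other. At day 7 Ctsc, encoding the lysosomal protease cathepsin C, was at 181 CPM against 54.6 in MES_ENDO, 38.3 in MES_EPI and 36.5 in MES_PERI. At day 21 it was at 31.7 CPM, below MES_EPI at 59.7. Rgs2, a regulator of G protein signalling, was at 239 CPM against 78.7, 67.5 and 74.1 at day 7, and at 52.9 against 67.8, 34.2 and 21.5 at day 21. Runx2, a transcription factor gene known from bone, was at 71.8 CPM against 15.3, 28.1 and 11.995 at day 7, and at 16.1 against 14.9, 26.8 and 6.21 at day 21. At day 21 they included S100a4, which encodes a calcium-binding protein much used as a fibroblast marker. It was at 430 CPM in MES_DIFF against 51.2, 27.6 and 131, and at day 7 at 90.2 against 40.7, 28.2 and 66.1, above all 3 classes there too but by less than 2-fold against MES_PERI. S100a4 was seen in 42.1% of thinned MES_DIFF cells at day 21 (37.1 to 47.2), against 8.83%, 4.87% and 19.3%. Spon2, a secreted spondin, was at 351 CPM against 11.5, 149 and 115 at day 21, and at 193 against 21.95, 139 and 34.7 at day 7. Col18a1, a basement membrane collagen, was at 780 CPM against 381, 127 and 330 at day 21, and level with MES_ENDO at day 7 (404 against 405, 82.2 and 293). F2rl1, a protease-activated receptor gene, was at 60.3 CPM against 18.4, 1.46 and 20.8 at day 21, and at 50.1 against 25.4, 4.80 and 13.6 at day 7. Spon2 and F2rl1 thus also led all 3 classes at day 7, by less than 2-fold against the nearest. Fabp4 was also among the 16 genes of day 21, but 106 of its 120 UMIs lay in 1 cell.

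**Figure D2:**
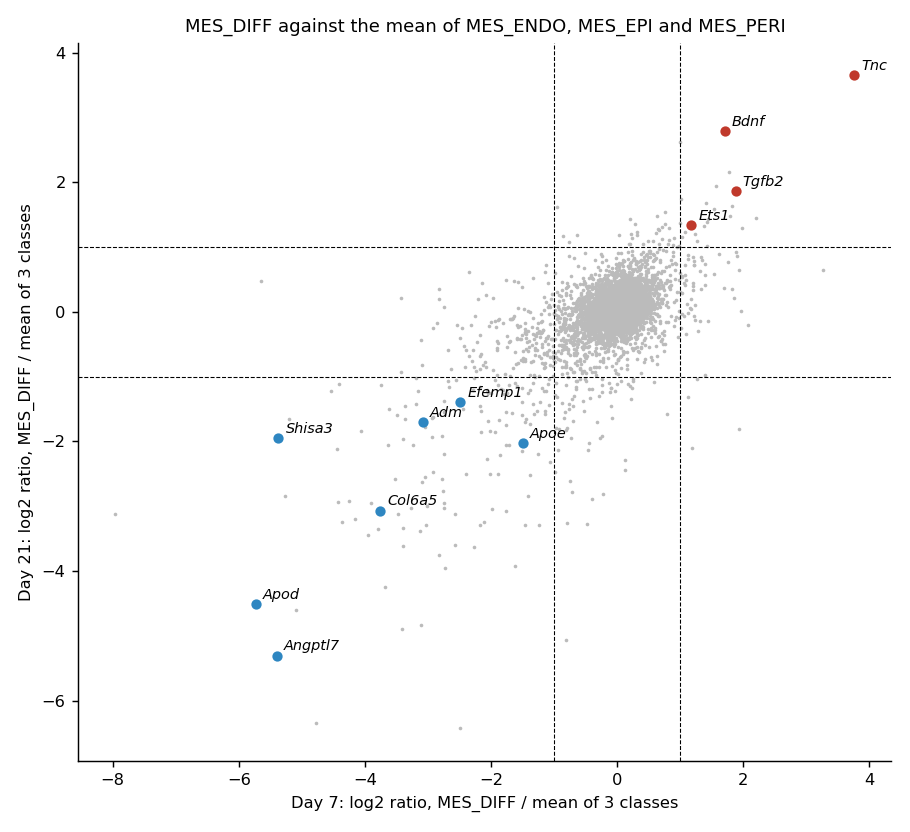
Log2 ratio of MES_DIFF to the mean CPM of MES_ENDO, MES_EPI and MES_PERI at day 7 (x axis) and day 21 (y axis), 1 point per gene for the 6048 genes measured in both libraries. Dashed lines mark 2-fold, red points are the 4 genes over 2-fold above each class in both libraries and blue points the 7 genes over 2-fold below each. Tnc lies farthest out among the 4, at 3.76 and 3.65.

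More genes were over 2-fold below all 3 layer classes at day 7 than over 2-fold above them. The count was 56 of 6410 genes (0.874%) at day 7 and 16 of 6718 (0.238%) at day 21, with 7 (0.116%) in both libraries. Those 7 were Adm, Angptl7, Apod, Apoe, Col6a5, Efemp1 and Shisa3. Apod, which encodes the lipid carrier apolipoprotein D, was at 122 CPM in MES_DIFF against 15412 in MES_ENDO, 270 in MES_EPI and 3747 in MES_PERI at day 7, and at 250 against 15233, 833 and 1079 at day 21. Apoe, another lipid carrier, was at 97.6 CPM against 290, 275 and 263 at day 7, and at 141 against 852, 448 and 419 at day 21. Efemp1, encoding the matrix protein fibulin-3, was at 21.7 CPM against 151, 147 and 69.6, then at 80.03 against 251, 204 and 178. Adm, the gene of the vasoactive peptide adrenomedullin, was at 3.12 CPM at day 7 and 12.5 at day 21, with the layer classes between 23.5 and 33.2 and between 27.9 and 57.7. Angptl7 was at 2.50 and 2.05 CPM, against 271 and 246 in MES_ENDO. Dcn, which encodes decorin, was lowest in MES_DIFF but by less than 2-fold against at least 1 class. It was at 2513 CPM against 7861, 4600 and 5731 at day 7, and at 9287 against 19057, 12102 and 10561 at day 21.

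Against 1 class at a time many more genes set MES_DIFF apart. At day 7 the genes over 2-fold higher made up 5.04% against MES_ENDO, 4.73% against MES_EPI and 6.01% against MES_PERI, and the genes lower 5.82%, 5.46% and 6.1%. At day 21 they were 8.35%, 6.61% and 6.1% higher and 4.21%, 5.27% and 4.08% lower. MES_DIFF was highest of the 4 classes by any margin in 26.2% of genes at day 7, 22.3% at day 21 and 10.4% in both. It was lowest in 13.2%, 6.82% and 2.55%. At day 7 the genes highest by any margin numbered 1682 in MES_DIFF, 1272 in MES_ENDO, 1347 in MES_EPI and 2109 in MES_PERI. At day 21 they numbered 1499, 1482, 1312 and 2425, so without the 2-fold cut MES_DIFF did not have the fewest.

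Some genes with a large gap to 1 class had a nearby level in another. Cilp, encoding a matrix protein of cartilage, was at 1147 CPM in MES_DIFF and 936 in MES_EPI at day 7 against 69.8 in MES_ENDO and 16.8 in MES_PERI, and at 458 and 792 against 6.67 and 6.28 at day 21. Mfap4, a gene of elastic fibre assembly, was at 357 and 675 against 28.6 and 33.9, then at 140 and 500 against 3.91 and 4.34. MES_DIFF and MES_EPI thus both stood above MES_ENDO and MES_PERI in these matrix genes. Eln, the elastin gene, was well below MES_EPI in MES_DIFF. It was at 46.1 CPM in MES_DIFF and 967 in MES_EPI at day 7, and at 40.4 and 659 at day 21. Trf, encoding transferrin, was low in MES_DIFF against all 3 classes at day 7, at 3.50 CPM against 340 in MES_ENDO, 9.15 in MES_EPI and 15.2 in MES_PERI. At day 21 it was at 2.30 against 169, 5.53 and 1.42. St8sia2, a polysialic acid synthase gene, had its low level in MES_EPI instead, at 101 CPM in MES_DIFF, 56.7 in MES_ENDO and 119 in MES_PERI against 7.01 in MES_EPI at day 7.

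In nerve layer markers MES_DIFF was mostly below the class a list is named for, and more often second to it at day 21 than at day 7. At day 21 MES_DIFF was second of the 4 classes, behind MES_PERI, in 8 of 8 perineurial markers. It was second in 9 of 10 epineurial markers and in 3 of 9 endoneurial markers, and it led in none. It was lowest of the 4 in 1 epineurial and 1 endoneurial marker. Its summed level was 35.5% of that of MES_PERI for the perineurial list, 26.9% of that of MES_EPI for the epineurial list and 70.6% of that of MES_ENDO for the endoneurial list. At day 7 these shares were 26.9%, 13.04% and 75.03%, and MES_DIFF was second in 2 of 8 perineurial, 6 of 11 epineurial and 1 of 10 endoneurial markers. It was lowest of the 4 in 1 perineurial, 3 epineurial and 1 endoneurial marker, and highest in 1 endoneurial marker. The endoneurial sum did not set MES_DIFF next to MES_ENDO at day 21, where MES_EPI had 3368 CPM and MES_DIFF 2874. Mgp, the matrix Gla protein gene, at 1887 CPM and Spp1, the osteopontin gene, at 1127 made up most of the day 7 endoneurial sum in MES_DIFF. The median endoneurial marker was at 30.4% of its MES_ENDO level.

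Single markers show how far each layer was shared. Cldn1, encoding the tight junction protein claudin-1 of the perineurium, was at 178 CPM in MES_DIFF at day 7 against 119 in MES_ENDO, 16.8 in MES_EPI and 281 in MES_PERI. At day 21 it was at 713 against 156, 108 and 1090. Itgb4, an integrin gene of perineurial cells, was at 1.62 CPM in MES_DIFF and 102 in MES_PERI at day 7, and at 65.2 and 422 at day 21. Krt19, a keratin gene, was at 7.00 and 83.7 CPM, then at 46.8 and 429. Clec3b, encoding the epineurial marker tetranectin, was at 61.1 CPM in MES_DIFF and 1260 in MES_EPI at day 7, and at 903 and 2642 at day 21. Sfrp2, a secreted Wnt inhibitor, stayed with MES_EPI, at 30.9 against 752 CPM and 5.62 against 490. Of the endoneurial genes, Wif1, also a Wnt inhibitor, was at 16.7 CPM in MES_DIFF and 150 in MES_ENDO at day 7, and at 0.256 and 19.1 at day 21. Wif1 does not stand for its list. The median endoneurial marker was at 30.4% of its MES_ENDO level at day 7 and 30.2% at day 21, and 1 was highest in MES_DIFF at day 7. At day 21 MES_DIFF thus exceeded MES_EPI in Cldn1 and MES_PERI in Clec3b, and was below the class each gene is known from.

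The counts per cell gave the same order. With cells thinned to 2000 UMIs, a MES_DIFF cell at day 21 held on average 3.08 UMIs of the epineurial list against 11.9 in MES_EPI, and 2.29 of the perineurial list against 5.95 in MES_PERI. At day 7 it held 1.15 against 9.64 and 0.432 against 1.53. Its endoneurial UMIs were 7.74 against 10.2 in MES_ENDO at day 7 and 5.29 against 8.33 at day 21. At day 21 Cldn1 was seen in 64.3% of MES_DIFF cells (59.3 to 69.1) and Clec3b in 58.4% (53.3 to 63.4). Neither was particular to MES_DIFF. Without thinning, where depth differs, Cldn1 was in 91.2% of MES_DIFF, 56.7% of MES_ENDO, 37.2% of MES_EPI and 97.4% of MES_PERI cells. For Clec3b these shares were 77.0%, 53.0%, 99.4% and 39.8%. Dpt, another epineurial marker, was in 25.1% of MES_DIFF and 86.6% of MES_EPI cells.

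**Figure D3:**
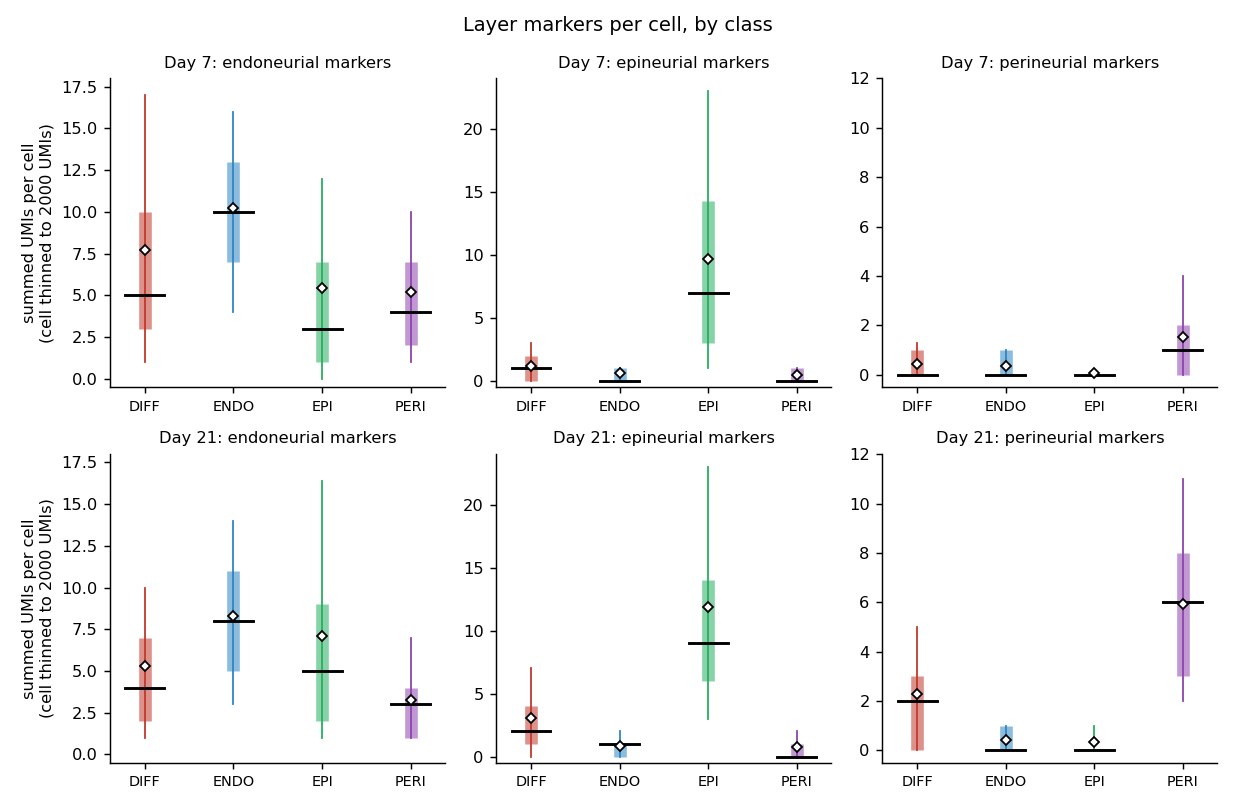
Summed UMIs of the endoneurial, epineurial and perineurial marker lists per cell, after thinning each cell to 2000 UMIs, at day 7 (top) and day 21 (bottom). The black bar is the median, the diamond the mean, the box the quartile range and the line the range between the outer 10% of cells on each side, with 308 and 387 MES_DIFF cells. MES_DIFF means lie below that of the class each list is named for in all 6 panels.

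Cldn1 was seen less often in MES_DIFF cells with Clec3b than in those without it, though many cells of day 21 held both. Among thinned cells of day 21, 131 of 226 with a Clec3b UMI also had a Cldn1 UMI (58.0%), against 118 of 161 without one (73.3%). The cells with Clec3b had a median of 9176 UMIs before thinning and those without it 9229. At day 7 Cldn1 was seen in 2 of 29 cells with Clec3b (6.90%) and in 76 of 279 without it (27.2%). Cldn1 was likewise the less frequent in cells with Tnc. At day 21 it was seen in 17 of 43 cells with Tnc (39.5%) and in 232 of 344 without it (67.4%). The cells with Tnc were deeper, at a median of 14480 against 8977 UMIs. At day 7 Cldn1 was in 46 of 209 cells with Tnc (22.01%) and in 32 of 99 without it (32.3%). These shares are of thinned cells with a UMI and have no test. Cells with both genes were not counted in the layer classes. No doublet caller was run, and the part of doublets in cells with markers of 2 layers was not tested.

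Gene lists were set against the mean of the 3 layer classes, and a member counts as higher or lower when it differed from that mean by more than 2-fold. Over all genes measured, 1.72% were higher and 5.62% lower at day 7, and 1.07% and 3.87% at day 21. The median log2 ratio over all genes was 0.029 at day 7 and 0.056 at day 21. A gene at a middle level between 1 high and 2 low classes falls below this mean, so lists of layer genes read low by this measure.

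Against this mean, the TGF-beta ligand and receptor list leaned to MES_DIFF through 2 of its ligands. Its sum did not set MES_DIFF above MES_EPI. The sums were 1086 CPM in MES_DIFF and 1079 in MES_EPI at day 7, and 930 and 1074 at day 21. At both days 2 members were higher and none lower, of 12 measured at day 7 and 13 at day 21, and the median log2 ratio was 0.34 and 0.30. The 2 were Tgfb2 and Tgfb1. Tgfb1 was at 122 CPM in MES_DIFF against 65.0, 29.7 and 41.6 at day 7, and at 42.4 against 23.9, 15.6 and 23.4 at day 21. Of 14 TGF-beta response genes 2 were higher and 1 lower at day 7, and 4 higher and 1 lower at day 21. At day 21 1 of them, Ldlrad4, was over 2-fold above each of the 3 classes. Tgfbi was lower at day 7, at 163 CPM against 807 in MES_ENDO, 83.3 in MES_EPI and 409 in MES_PERI, and thus not below each class.

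Contractile and cytoskeletal genes had the highest median of any process list at day 7, 0.58, and 0.35 at day 21. Of 16 members 2 were higher and none lower at day 7, and 1 higher and 1 lower at day 21, the actin crosslinker gene Actn1 and the myosin kinase gene Mylk. Acta2, the smooth muscle actin gene, was at 119 CPM in MES_DIFF against 18.7, 35.0 and 79.97 at day 7, and at 9.97 against 2.76, 5.44 and 3.96 at day 21. Tagln, another gene of contractile cells, was at 214 CPM against 20.6, 109 and 150, then at 88.5 against 7.58, 14.1 and 126. In MES_EPI-diff Acta2 reached 541 CPM and Tagln 1098 at day 7. Tagln2, the gene of an actin-binding relative, was above each class in both libraries, at 572 CPM against 291, 323 and 314, and at 487 against 200, 317 and 255.

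Among matrix genes the fibrillar collagens held few beyond 2-fold. Of 8 measured 1 was higher and 2 lower at day 7, and of 7 at day 21 none was higher and 1 lower. Their medians of 0.20 and 0.15 turned to -0.14 and -0.27 against MES_ENDO and MES_EPI alone, so no direction is given. Of 13 other collagens, those outside the fibrillar group, 3 were higher and 1 lower at day 7, and 2 were higher and 2 lower at day 21, with a median near 0.46 at both days. Col6a3, a chain of the filament-forming collagen VI, was at 1505 CPM in MES_DIFF against 384, 1057 and 277 at day 7, and at 1222 against 485, 1054 and 666 at day 21. Col12a1, which binds the surface of collagen fibrils, was at 293 CPM against 20.9, 355 and 60.5, then at 194 against 13.1, 119 and 42.6. No small leucine-rich proteoglycan, the family that binds and spaces collagen fibrils, was higher. Of 9 measured, 6 were lower at day 7 and 4 at day 21, with medians of -1.27 and -0.72. Lum, encoding lumican, was at 775 CPM in MES_DIFF against 3481, 980 and 889 at day 7. Prelp was at 25.7 against 137, 115 and 118 at day 7, and at 281 against 236, 159 and 482 at day 21.

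The complement list read lowest of the process lists at day 7. All 10 measured members were lower, with a median of -1.77, and at day 21 4 of 10 were lower with a median of -0.70. Over 2-fold below each of the 3 classes were 3 members at day 7 and 0 at day 21. At day 21 the list summed to 1858 CPM in MES_DIFF against 1566 in MES_ENDO, 3849 in MES_EPI and 2611 in MES_PERI. C3, the central complement component, was at 14.0 CPM in MES_DIFF against 53.8, 271 and 43.7 at day 7, and at 11.2 against 64.4, 282 and 7.33 at day 21. C4b was at 11.995 CPM against 22.2, 203 and 18.1, then at 34.01 against 27.8, 222 and 15.03. Of 15 chemokines and cytokines at day 7, 1 was higher and 5 were lower, and of 16 at day 21 none was higher and 6 were lower. Only 0 at day 7 and 1 at day 21 were over 2-fold below each of the 3 classes. The list sum in MES_DIFF was above that of MES_PERI, at 2150 against 1882 CPM and at 2023 against 1122. Ccl2, a chemokine for monocytes, was at 332 CPM against 1986, 473 and 378 at day 7, and Ccl11, a chemokine for eosinophils, was at 115 against 1180, 94.1 and 405. Cxcl9 was the higher one, at 86.5 CPM in MES_DIFF, 78.0 in MES_EPI, 3.21 in MES_ENDO and 2.93 in MES_PERI.

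Secreted Wnt inhibitors were also low against the mean, with 4 of 7 lower at day 7 and 4 of 6 at day 21. Their medians were -1.33 and -1.38, but 0 members were over 2-fold below each of the 3 classes at either day. The list summed to 401 CPM in MES_DIFF against 454 in MES_ENDO, 2258 in MES_EPI and 572 in MES_PERI at day 7. At day 21 the sums were 587 against 224, 2633 and 1080, so MES_DIFF was above MES_ENDO. Sfrp5 was at 10.6 CPM in MES_DIFF and 300.1 in MES_PERI at day 7, and at 89.2 and 796 at day 21. Of the hedgehog pathway, through which Schwann cells are known to direct the perineurium, none of 10 members differed by more than 2-fold at either day. Ptch1, its receptor and target, was at 150 CPM in MES_DIFF and 542 in MES_PERI at day 7, and at 232 and 740 at day 21. MES_DIFF was not the lowest class in Ptch1 at day 7. Among cells thinned to 2000 UMIs it was seen in 23.1% of MES_DIFF, 33.3% of MES_ENDO, 7.84% of MES_EPI and 58.9% of MES_PERI cells. Of 6 Notch pathway genes 1 was higher at both days, the target Heyl, at 31.0 CPM against 4.28, 10.2 and 5.60, and at 37.3 against 3.68, 11.5 and 25.9. Of 31 mesenchymal transcription factors at day 7, 1 was higher and 7 were lower, and of 32 at day 21, 2 were higher and 3 lower. Foxd1, for example, was at 32.5 CPM in MES_DIFF and 287 in MES_PERI at day 7.

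**Figure D4:**
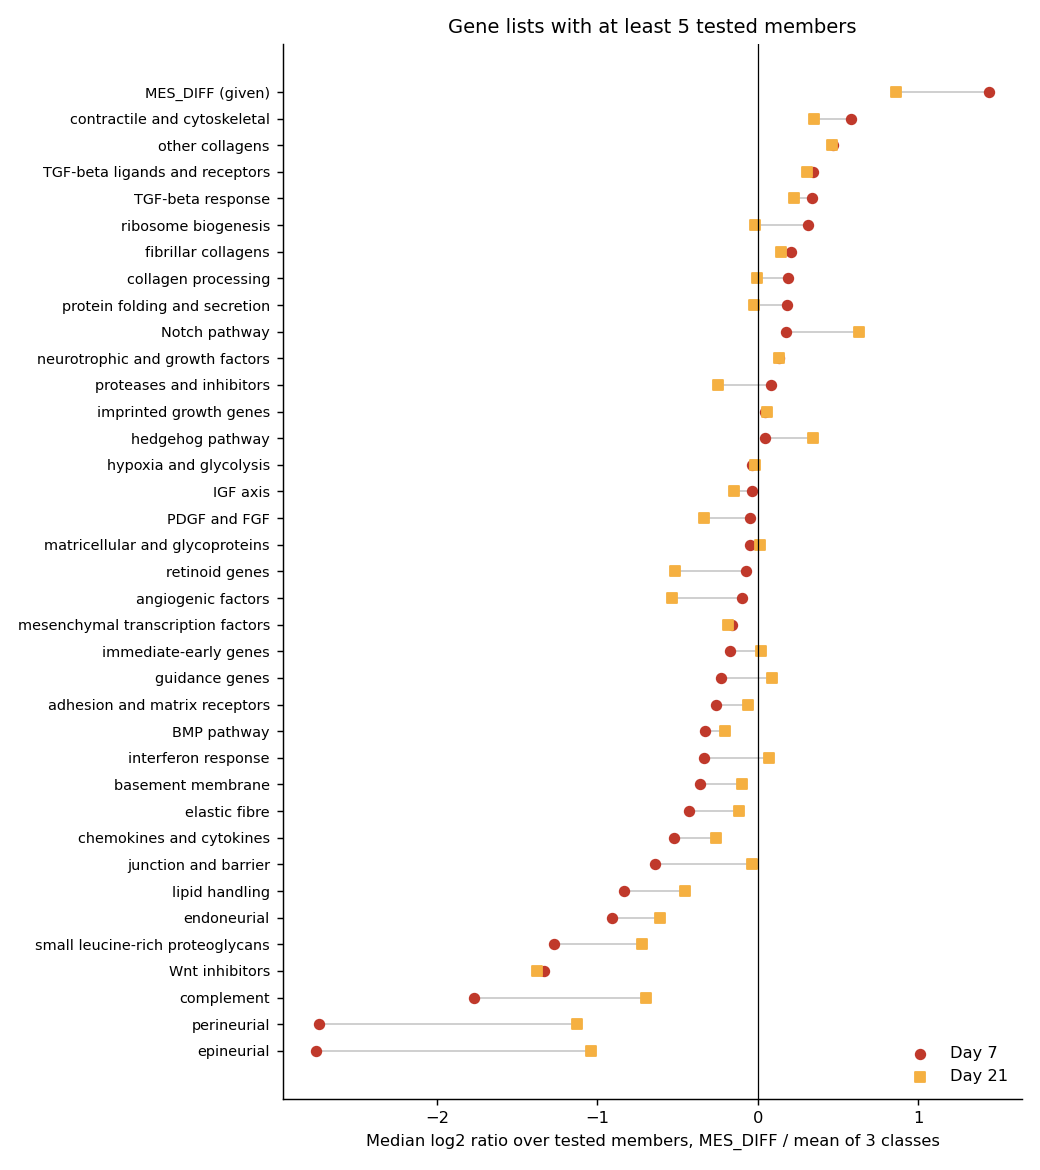
Median log2 ratio of MES_DIFF to the mean of the 3 layer classes over the measured members of each gene list with at least 5 of them, at day 7 (circles) and day 21 (squares). The zero line is equal level. Perineurial, epineurial and complement lists lie lowest at day 7, at -2.73, -2.75 and -1.77, and each is nearer to 0 at day 21.

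The first component of variation among thinned MES_DIFF cells had Postn at 1 end in both libraries. A principal component analysis of the thinned MES_DIFF cells gave a first component with 2.26% of the variance at day 7 (308 cells, 2467 genes) and 2.56% at day 21 (387 cells, 2619 genes). Thinning adds counting noise to every gene, so these percentages do not measure how alike the cells are. At day 7 Postn, Tnc, Col6a1, Mest and Col6a3 had the largest positive loadings, and Igfbp6, Mgp, Igfbp7, Col4a1 and Dcn the largest negative ones, so that genes of matrix proteins lay at both ends. At day 21 Postn, Clec3b, Igfbp4, Cilp and Lum were at the positive end. Fos, Junb, Socs3 and Egr1, genes known to be induced early after a stimulus, tissue dissociation included, were at the other, along with Cldn1. The score had a Spearman correlation across cells of 0.263 and 0.248 with the cell's UMIs before thinning, a description of cells that share a library.

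When the cells were ordered by this score and divided into 3 groups of like size, the epineurial and perineurial lists ran in opposite directions. At day 21 the group at the Postn end held on average 5.13 epineurial and 0.884 perineurial UMIs per 2000, the middle group 2.91 and 2.31, and the group at the Fos end 1.19 and 3.67. The 5 proposed markers summed to 10.3, 5.25 and 2.18 UMIs in these groups, and the endoneurial list to 6.32, 4.80 and 4.75. At day 7 the same 5 summed to 27.5, 16.9 and 6.82 UMIs from the Postn end to the Igfbp6 end, and the endoneurial list to 4.96, 6.64 and 11.6. The epineurial list summed to 1.505, 1.19 and 0.767 there and the perineurial list to 0.0777, 0.353 and 0.864. Genes of these lists were among those that built the component, so the groups describe it and are no test. The groups at the Postn end were deeper, with medians of 28650 against 23469 UMIs at day 7 and 10572 against 8508 at day 21.

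**Figure D5:**
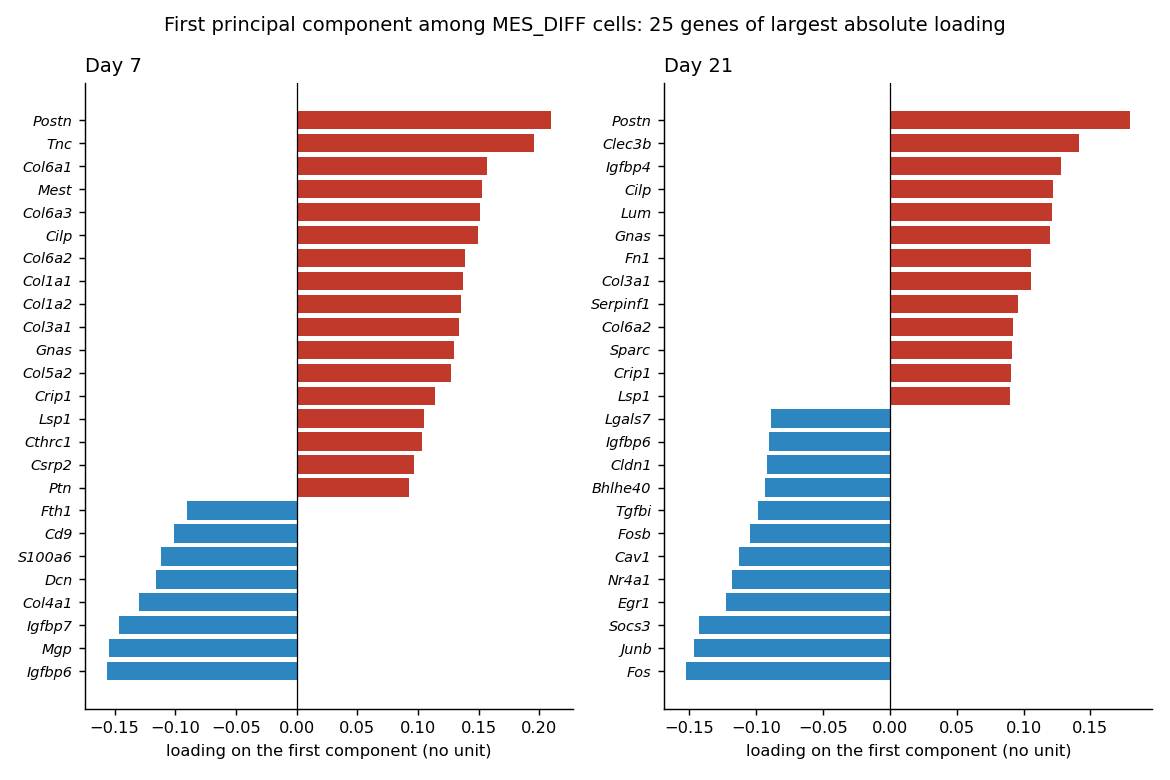
Loadings of the 25 genes with the largest absolute loading on the first principal component of the MES_DIFF cells, at day 7 (left) and day 21 (right), without units. Postn leads the positive end in both libraries, and the negative end is led by Igfbp6 at day 7 and by Fos at day 21.

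Across genes, the MES_DIFF sum was closest to a different class at each day. Spearman's rho at day 7, over 6955 genes, was 0.923 with MES_EPI-diff, 0.907 with MES_EPI, 0.893 with MES_ENDO, 0.882 with MES_PERI and 0.839 with MES_DIV, the dividing class. At day 21, over 7721 genes, it was 0.919 with MES_PERI, 0.899 with MES_EPI, 0.893 with MES_ENDO, 0.817 with MES_EPI-diff and 0.742 with MES_DIV. Genes are not independent replicates, and the day 21 MES_EPI-diff and MES_DIV sums came from 22 and 119 cells. Between the libraries themselves Spp1 was at 1127 CPM in MES_DIFF at day 7 and 17.4 at day 21, Wnt6 at 11.2 and 195, and Itgb4 at 1.62 and 65.2. Time, library and depth cannot be told apart in these differences.

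The 16 MES_DIFF cells of intact nerve held 113978 UMIs. Tnc, Cthrc1 and Bdnf had 0 counts there. With 3 counts as the floor this allows up to 26.3 CPM, and the exact Poisson interval reaches 32.4. Postn was at 842 CPM (682 to 1029), with UMIs in 11 cells, and Tgfb2 at 246 CPM (163 to 355), with UMIs in 9. Clec3b was at 1141 CPM and Dpt, another epineurial marker, at 702, while Cldn1 had 1 count.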

How the data were processed

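Single-cell RNA was counted per gene and cell barcode, and the deposited matrices hold UMI counts, whole numbers that were not normalized. The file headers of all 3 matrices name Cell Ranger 6.1.2, and the submitters' processing notes list Cell Ranger 3.0.2 and 6.1.2 together with Seurat 4.0.1, and as genome builds GRCm38 and mm10. Which version made which step, the cell filters and any removal of doublets are not given in the sources used here. No doublet caller was run. Classes are the authors' own, from the deposited cell metadata, and 1 listed cell of day 21 was not found in its matrix.

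Counts were summed per class and library and scaled to CPM of that sum. Log2 ratios were formed after adding 0.5 counts. Ratios to 1 class have exact conditional binomial intervals, ratios to the mean of 3 classes delta-method ones, CPM exact Poisson and shares exact Clopper-Pearson ones. Intervals cover counting error only. Genes with at least 20 CPM in any of the 4 classes were compared. Symbols on more than 1 row were left out. Mitochondrial, ribosomal and haemoglobin genes, numbered clones, sex-linked and transgene features were not named. Thinning drew 2000 UMIs per cell (numpy 2.4.6, scipy 1.17.1, pandas 2.3.3, Python 3.11.15). The ratios and intervals were tested on simulated counts. These were independent Poisson class sums, the model that the intervals assume, so counts clustered in a few cells were not covered. Gene positions are from GENCODE M21 on mm10.

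Named genes needed 50 CPM, with UMIs in 10% or more of the cells, in the higher class of both libraries. They were the 12 genes at each end when ranked by the least favourable ratio over the 3 classes and both libraries, the 4 with the largest ratio to each class in each direction, and 5 that led in each library alone. Up to 4 members of each list, the proposed markers, Pdgfra, Pdgfrb and the 10 largest loadings of each component were added. Any other gene is named with its reason or to check cell types or layers. The 16 marker and 37 process lists and the members were chosen with earlier results of these data known. The symbol Leprel1 had no row. Some genes are not reported here. Alternatives covered scaling, the CPM minimum, depth, weights of cells and the reference.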

Additional observations from a re-analysis of the deposited data

How the results depend on the processing

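Of 60 recounts of the genes beyond 2-fold of all 3 classes, 39 stayed within 1.5 times the value reported and 21 did not. With a minimum of 50 CPM the genes higher in MES_DIFF numbered 12 at day 7, 8 at day 21 and 2 in both, and the genes lower 30 at day 7 and 4 in both. With no minimum, where genes of a few counts enter, they were 596, 1231 and 96 higher and 1369, 373 and 56 lower. With cells thinned to 2000 UMIs 66 and 28 were higher and 109 and 35 lower at day 7 and day 21. With MES_ENDO and MES_EPI alone as the reference, chosen after seeing the data, 50, 135 and 16 were higher and 93, 74 and 26 lower. With this reference, which left out the perineurial class, the perineurial list had medians of 1.398 at day 7 and 2.319 at day 21. Both were negative with all 3 classes. The CPM minimum was then met only through MES_DIFF, MES_ENDO or MES_EPI, so perineurial markers low in all of these did not count. At day 7 MES_DIFF was second of the 4 classes in only 2 of 8 perineurial markers, so the day 7 median does not describe the whole list. Without the 10% of cells with the most UMIs the day 21 log2 ratio of Fabp4 was -1.017 and that of Lrrc15 -0.684, in place of positive values. Of the Fabp4 UMIs 88.3% lay in 1 cell, and Lrrc15 had 11 UMIs in 5 cells. The cause was not tested. Size factors kept 3 of the 4 genes higher in both libraries and 7 of the 7 lower. The largest shift of the median of all genes by a scaling was -0.089. Lists with medians near 0, such as the imprinted genes, matricellular proteins and interferon response, changed sign under some settings, so no direction was given for them.

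No paired analysis was possible because each group was 1 library. Leaving out a replicate could not be done for the same reason. Depth limits genes near the 20 CPM minimum most, and more at day 21, where the MES_DIFF sum was smaller.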
